A study of Mus musculus with 6 samples.

Results

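The pre-B receptor signalling genes are Cd79a, Cd79b, Lyn, Blk, Syk, Btk, Blnk and Plcg2, which encode the signalling subunits of the receptor and the proteins that act directly below it. They were chosen by name for their place in the pathway, with earlier results of these data known, and they are 8 of the 22342 protein-coding genes of GENCODE M1 on mouse assembly mm9. H3K27ac, a histone mark of active promoters and enhancers, H3K4me3, a histone mark of active promoters, and Pax5, a transcription factor of the B lineage, were mapped in pre-B cells by ChIP-seq. The cells came from C57BL/6 RAG-/- µ+ mice of both sexes aged 6 to 14 wk, which lack the recombinase and carry an IgM transgene that is already rearranged, and all 6 samples (3 ChIP, 3 input) share this background. Any heavy chain in these cells comes from the transgene, so they model pre-B cells whose heavy chain gene is already rearranged. Assembly of the receptor was not measured. Each ChIP is 1 library, so no value below has a replicate check or a test, and the input reads were not used here.

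The deposited lists give positions of enriched DNA and no read numbers, which leaves sequencing depth unknown. The H3K27ac list holds 69345 peaks with a median width of 428 bp and scores from 3.06 to 330.0 (median 8.52), and the Pax5 list holds 15445 peaks with a median width of 965 bp and scores from 87.9 to 3214 (median 207). The scores are numbers of the peak caller on scales the lists do not name, so they rank peaks within a list and are not compared between lists. The H3K4me3 list holds bins of 25 bp and no score, and joining those up to 100 bp apart gave 17979 regions, 1020 bp wide at the median.

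The pre-B receptor pairs a heavy chain with the surrogate light chain and tests whether the heavy chain is functional. It signals through Cd79a and Cd79b (Igα and Igβ), whose tyrosine motifs are phosphorylated by Src family kinases such as Lyn and Blk and then bound by Syk. Syk phosphorylates the adaptor Blnk, which brings Btk and Plcg2 together, and the calcium and lipid signals that follow drive proliferation and then, as Blnk-dependent signals slow the cycle, light chain rearrangement.

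The label pre-B was compared with marker genes of the cell types that marrow of such mice could hold. Of 8 B lineage markers, 8 had an H3K27ac peak, 6 an H3K4me3 region and 7 a Pax5 peak within 1000 bp of a protein-coding start. Vpreb1 and Igll1 lacked the H3K4me3 region and Vpreb3 the Pax5 peak, and Cd79a and Cd79b are themselves on that marker list. Among all protein-coding genes, 48.3%, 52.6% and 37.4% had such entries at a start. None of the 6 T cell markers had an entry of any list there, and Cd3e and Cd8a had none within 10 kb of the gene either. The other 4 had entries of each list in the body or flanks, with H3K27ac scores up to 114 near Cd3g and 83.8 near Cd3d and a Pax5 score of 417 near both. Of 6 myeloid markers, 5 had an H3K27ac peak, 4 an H3K4me3 region and 0 a Pax5 peak at a start, and the corresponding counts were 3, 2 and 0 of 3 for erythroid markers and 1, 0 and 0 of 2 for NK markers. The highest H3K27ac score near the NK marker Klrb1c was 128, and Ncr1 had no entry. Lyn, Syk, Btk and Plcg2 are also used in myeloid cells, and the part of such cells in the values of these genes was not tested. The H3K4me3 regions at the myeloid starts were 75 to 875 bp wide at their widest, against 1850 to 5600 bp at the signalling genes. At the erythroid starts they were 1225 bp (Klf1) and 1050 bp (Epor). The highest H3K27ac score within 10 kb of a myeloid marker ran from 8.01 to 69.9, and that of a signalling gene from 35.1 to 117, so these ranges overlapped. In such bulk samples, fewer cells of a type and less signal per cell cannot be told apart.

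The sequences below show the DNA on which the main positions rest, read from mm9 and written in the direction of each gene's transcription. For Cd79a, Blnk and Btk, the 300 bases before the first protein-coding start are given, because the middle of the highest-scoring Pax5 peak overlaps an annotated exon. Of these promoters, those of Cd79a and Blnk had 2 Pax5 peaks and that of Btk had none. For Syk, Cd79b, Blk and Plcg2, the middle 300 bases of the gene's highest-scoring Pax5 peak are given. None of these stretches overlaps an annotated exon. Capitals mark exact matches, on either strand, to any of 6 motifs searched: GCGTGAC (part of the Pax5 motif), CCCNNGGG (Ebf), ACAGGAAG and CCGGAAGT (ETS family), ATTTGCAT (octamer) and CAGGTG (E box). Stretches wholly in lower case hold no match.
Cd79a promoter, chr7:25682100-25682399, plus strand: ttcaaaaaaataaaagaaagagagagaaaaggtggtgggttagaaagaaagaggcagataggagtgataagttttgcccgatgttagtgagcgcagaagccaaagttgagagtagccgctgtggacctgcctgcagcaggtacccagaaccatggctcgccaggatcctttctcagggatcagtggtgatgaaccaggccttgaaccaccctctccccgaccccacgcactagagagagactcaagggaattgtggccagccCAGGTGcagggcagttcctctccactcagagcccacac
Blnk promoter, chr19:41069026-41069325, minus strand: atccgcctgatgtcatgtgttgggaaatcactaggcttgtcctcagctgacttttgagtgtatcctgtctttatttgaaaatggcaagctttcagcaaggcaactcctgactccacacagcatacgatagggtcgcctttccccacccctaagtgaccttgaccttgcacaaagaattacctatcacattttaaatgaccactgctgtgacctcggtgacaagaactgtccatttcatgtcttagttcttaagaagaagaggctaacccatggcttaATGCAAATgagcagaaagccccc
Btk promoter, chrX:131117680-131117979, minus strand: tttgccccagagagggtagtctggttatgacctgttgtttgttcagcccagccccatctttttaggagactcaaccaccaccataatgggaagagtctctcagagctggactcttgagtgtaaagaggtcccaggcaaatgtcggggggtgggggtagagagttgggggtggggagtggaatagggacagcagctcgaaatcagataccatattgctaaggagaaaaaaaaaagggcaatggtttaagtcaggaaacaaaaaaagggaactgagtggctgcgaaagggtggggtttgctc
Syk upstream Pax5 peak, chr13:52667876-52668175, plus strand: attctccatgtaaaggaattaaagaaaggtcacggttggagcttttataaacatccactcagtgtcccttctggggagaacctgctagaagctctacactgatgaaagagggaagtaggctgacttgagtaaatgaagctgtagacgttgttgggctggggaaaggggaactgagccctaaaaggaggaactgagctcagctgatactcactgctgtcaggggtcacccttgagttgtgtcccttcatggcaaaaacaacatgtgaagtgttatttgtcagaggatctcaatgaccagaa
Cd79b upstream Pax5 peak, chr11:106186368-106186667, minus strand: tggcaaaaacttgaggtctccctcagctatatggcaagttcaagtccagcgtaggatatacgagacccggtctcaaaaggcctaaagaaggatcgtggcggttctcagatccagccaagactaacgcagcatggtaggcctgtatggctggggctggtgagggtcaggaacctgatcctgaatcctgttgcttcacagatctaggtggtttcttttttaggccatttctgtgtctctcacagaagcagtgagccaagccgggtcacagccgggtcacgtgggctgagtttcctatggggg
Blk intron 10 Pax5 peak, chr14:63996221-63996520, minus strand: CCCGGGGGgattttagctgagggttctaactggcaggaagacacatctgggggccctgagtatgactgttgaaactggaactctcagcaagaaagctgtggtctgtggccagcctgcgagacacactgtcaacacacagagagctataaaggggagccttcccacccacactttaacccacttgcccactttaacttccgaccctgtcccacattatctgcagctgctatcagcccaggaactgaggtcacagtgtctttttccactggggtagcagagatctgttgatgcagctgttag
Plcg2 promoter Pax5 peak, intron 1, chr8:120022541-120022840, plus strand: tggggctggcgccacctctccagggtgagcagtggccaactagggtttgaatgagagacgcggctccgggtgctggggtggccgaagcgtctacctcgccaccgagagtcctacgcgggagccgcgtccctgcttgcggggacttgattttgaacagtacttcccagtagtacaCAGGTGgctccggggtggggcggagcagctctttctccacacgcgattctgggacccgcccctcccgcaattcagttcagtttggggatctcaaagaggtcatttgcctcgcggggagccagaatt

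All 8 genes had an H3K27ac peak and an H3K4me3 region within 1000 bp of a protein-coding start, and 7 had a Pax5 peak there. The exception was Btk, which had 1 only within 2500 bp, near the start of the neighbouring gene Rpl36a. Among all protein-coding genes, 48.3% had such an H3K27ac peak, 52.6% such an H3K4me3 region and 37.4% such a Pax5 peak, and 34.3% had all 3 together, against 7 of the 8. The loci, each taken as the gene record with 10 kb on either side, held 120 H3K27ac peaks, 28 H3K4me3 regions and 29 Pax5 peaks. Most of the H3K27ac peaks lay beyond the promoters, with 12 at a promoter, 80 in a gene body and 28 in a flank. Of the Pax5 peaks, 10 were at a promoter, 10 in a body and 9 in a flank, and of the H3K4me3 regions 10, 7 and 11.

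**Figure D1:**
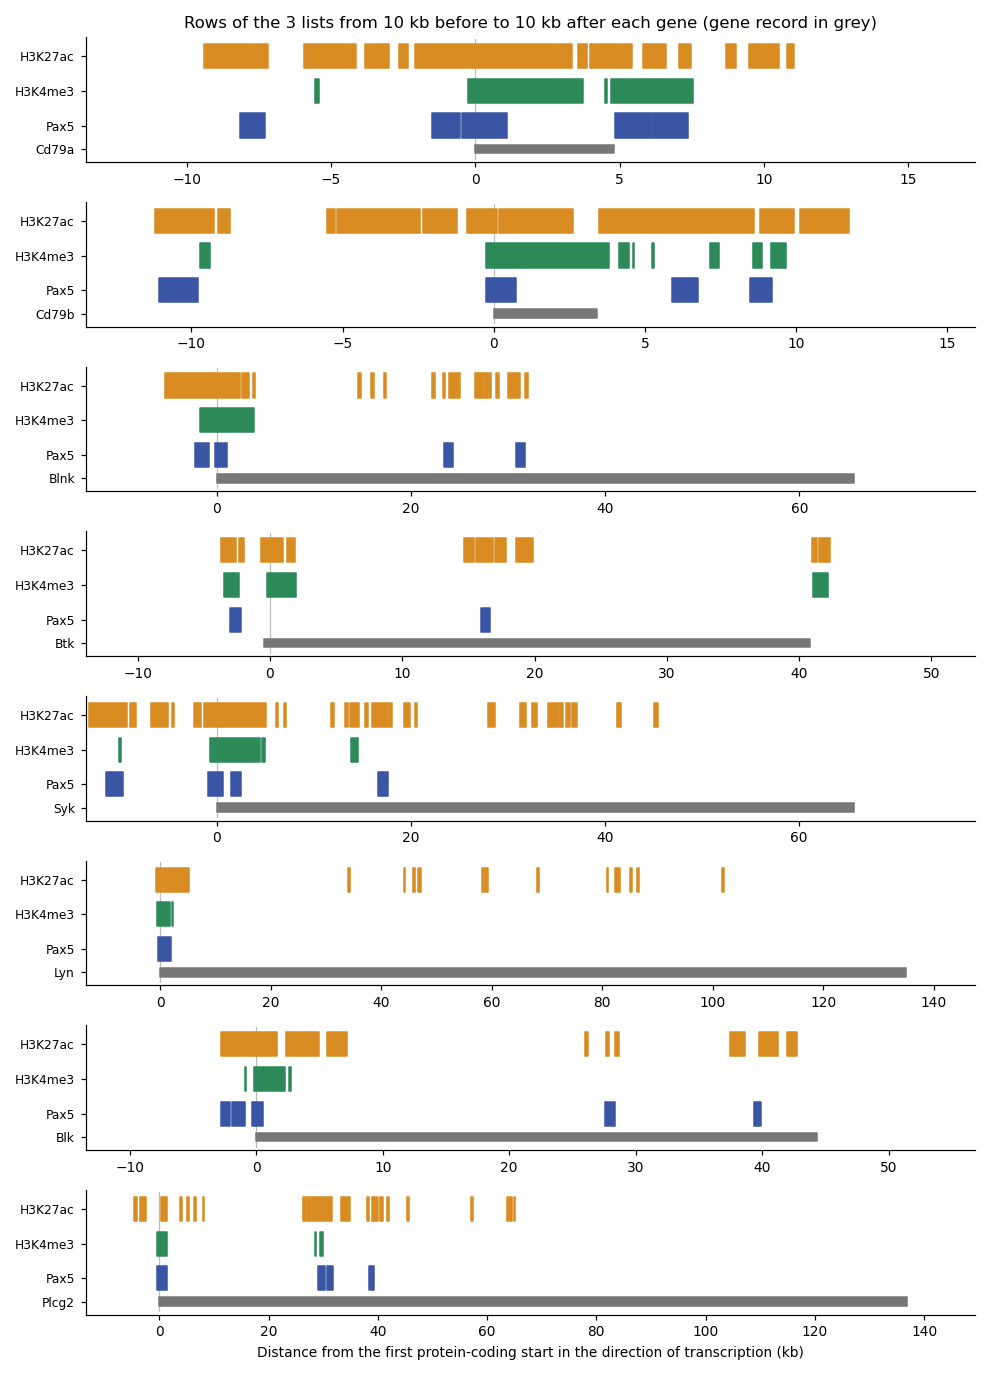
Positions of H3K27ac peaks, H3K4me3 regions and Pax5 peaks at the 8 genes, in kb from the first protein-coding start with transcription to the right, and the gene record in grey. H3K27ac extends far into the long genes and H3K4me3 gathers at the starts. In the short genes Cd79a and Cd79b, the promoter H3K4me3 region reaches over 77.4% and 100% of the gene record.

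By place, H3K27ac peaks lay in the body of 7 of the 8 genes and in a flank of 5, and 28.5% and 39.2% of all protein-coding genes had such peaks. H3K4me3 regions lay in the body of 5 and a flank of 4 (10.3% and 26.8% of all genes), and Pax5 peaks in the body of 5 and a flank of 5 (11.9% and 22.8%). Off the promoter, 8 of the 8 genes had an H3K27ac peak, 7 an H3K4me3 region and 7 a Pax5 peak in the body or flanks. The same held for 50.6%, 33.5% and 30.9% of all protein-coding genes, in that order. Blnk was the gene without an H3K4me3 region off its promoter, and Lyn the gene without such a Pax5 peak. In 6 of the 8 loci lay 4 or more Pax5 peaks, as in 3.04% of all genes, and 2 or more Pax5 peaks at the promoter were found for Cd79a, Blnk and Blk, as for 2.21% of all genes. Numbers of peaks depend on gene length, and the gene records ran from 3.42 kb (Cd79b) to 137.0 kb (Plcg2).

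The share of each locus inside a peak or region divides by the length of the locus, from 23.4 kb (Cd79b) to 157.0 kb (Plcg2). It is not free of length, since a promoter domain of a given size fills more of a short locus. Its median over the 8 loci was 18.2% for H3K27ac, 6.89% for H3K4me3 and 5.03% for Pax5, where the medians over all protein-coding genes were 1.87%, 1.61% and 0.552%. The receptor subunits stood at the top for all 3 lists. H3K27ac peaks filled 70.7% of the Cd79b locus, rank 8 of all 22342 genes, and 61.8% of the Cd79a locus, rank 19. In these 2 short loci, 8 of 10 and 9 of 12 H3K27ac peaks were in the flanks, some of them inside neighbouring genes. Below them came Syk with 23.9%, Blk with 19.8%, Blnk with 16.7% and Btk with 14.8%. The longest genes had the smallest shares, with 8.85% at Plcg2 and 6.64% at Lyn, still above the median of all genes. For H3K4me3, Plcg2 (1.51%) lay below the median of all genes and Lyn (1.73%) just above it. The shares of Cd79a and Cd79b for Pax5 and H3K4me3 also include entries in or near neighbouring genes. Of their Pax5 peaks, 3 of 5 at Cd79a and 3 of 4 at Cd79b were in the flanks. At Cd79a, an H3K4me3 region of 2850 bp reached into the neighbouring gene Arhgef1.

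**Figure D2:**
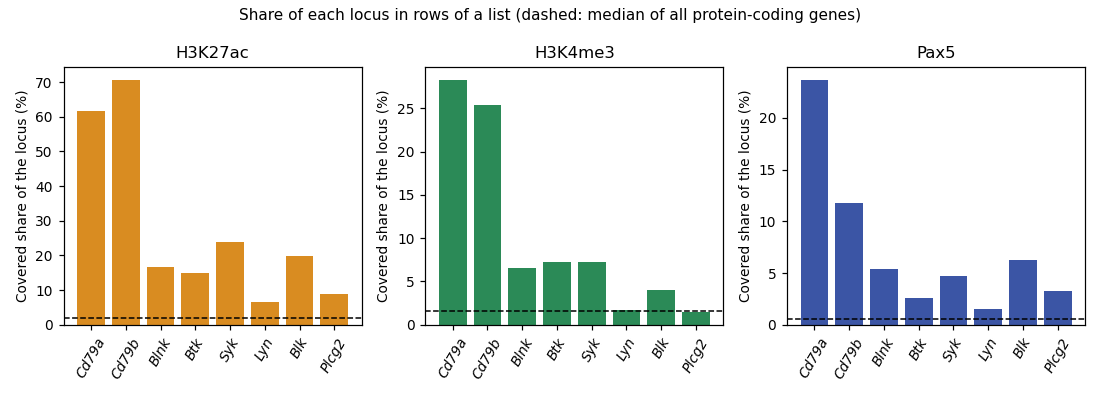
Share of each locus (gene record and 10 kb on either side) covered by H3K27ac peaks, H3K4me3 regions or Pax5 peaks, in percent, with the median of all protein-coding genes dashed. Cd79a and Cd79b are the highest pair in each panel, and Plcg2 is under the dashed line for H3K4me3.

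Cd79a (ENSMUSG00000003379.7, chromosome 7, 25682400 to 25687216, plus strand) is the gene of Igα. A single H3K27ac peak of 5439 bp with a score of 101, above 98.9% of the list, ran from -2083 to 3355 bp of the start, where negative positions are upstream. The H3K4me3 region ran from -270 to 3729 bp and so reached over 77.4% of the gene record. A Pax5 peak with a score of 450 covered the start (-469 to 1089 bp, its middle in intron 1), and another with a score of 216 lay just upstream of it (-1484 to -520 bp). The highest Pax5 score of the locus, 979, was not at the promoter but downstream of the gene, at 6126 to 7354 bp, in intron 1 of the neighbouring gene Arhgef1. That peak and the Pax5 peak next to it (score 164, 4843 to 6085 bp) each lay within 1000 bp of a start of Arhgef1, and an H3K4me3 region of 2850 bp spanned the end of Cd79a and these starts. Whether these downstream entries belong to Cd79a or to Arhgef1, which encodes a guanine nucleotide exchange factor, cannot be told apart by position. The remaining Pax5 peak, with a score of 201, lay in intron 5 of Rps19, a ribosomal protein gene, at -8146 to -7270 bp.

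Cd79b (ENSMUSG00000040592.5, chromosome 11, 106172655 to 106176076, minus strand) encodes Igβ, the partner of Igα. Its H3K4me3 region of 4075 bp ran from -269 to 3805 bp and reached over 100% of the gene record. H3K27ac was broad rather than high: the promoter peaks had scores of 16.7 (-872 to 97 bp) and 28.0 (184 to 2611 bp), the lowest promoter maximum of the 8 genes, and a downstream peak of 5143 bp with a score of 35.0 ran from 3478 to 8620 bp. Both peaks inside this short gene were near its start, so none counted as a body peak. The strongest entries of the locus lay upstream across the 10 kb limit, in intron 18 of Scn4a, a skeletal muscle sodium channel gene. There an H3K27ac peak of score 50.2 (-11198 to -9263 bp) contained a Pax5 peak of score 644 (-11088 to -9795 bp), above 89.2% of the Pax5 list, whose middle bases are printed above. The Pax5 peak over the Cd79b start (-254 to 721 bp) had a score of 244, and those downstream had 228 (5908 to 6760 bp) and 134 (8460 to 9193 bp). Of the 8 H3K4me3 regions of the locus, 7 were small flank regions of 25 to 500 bp.

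The Src family kinases Lyn and Blk, which phosphorylate the receptor's tyrosine motifs, differed in where Pax5 lay. Lyn (ENSMUSG00000042228.8, chromosome 4, 3605262 to 3740269, plus strand) had a single Pax5 peak in a locus of 155.0 kb. It covered the start from -446 to 1942 bp with a score of 1275, rank 356 of the list, and it was 2389 bp wide. H3K27ac lay on both sides of the start, with scores of 76.3 (-797 to 409 bp) and 117 (525 to 5174 bp), the latter the highest H3K27ac score in any of the 8 loci. The remaining 12 H3K27ac peaks, in the body, had low scores from 4.81 to 10.6 with a median of 7.54. The H3K4me3 region of 2375 bp ran from -551 to 1823 bp, close to the extent of the Pax5 peak.

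Blk (ENSMUSG00000014453.3, chromosome 14, 63991674 to 64036024, minus strand) had 5 Pax5 peaks, 4 of them under the list's median of 207. Those around the start had scores of 198 (-2795 to -2047 bp), 121 (-1949 to -914 bp) and 164 (-313 to 544 bp). The highest, with a score of 453, above 80.5% of the list, lay in intron 10 near the end of the gene, at 39374 to 39934 bp, and a peak of score 110 lay in intron 1 (27549 to 28352 bp). An H3K27ac peak with a score of 54.8 (-2760 to 993 bp) overlapped all 3 of these. The highest H3K27ac score in the body, 28.4, belonged to a peak that overlapped the intron 10 Pax5 peak (39781 to 41264 bp). The far end of Blk therefore held its strongest Pax5 peak, and Lyn had none beyond its start.

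Syk (ENSMUSG00000021457.8, named Sykb in GENCODE M1, chromosome 13, 52678542 to 52744161, plus strand), the kinase that binds the phosphorylated receptor, had the highest Pax5 scores of the 8 genes. A Pax5 peak of 1817 bp with a score of 3100 lay upstream in intergenic DNA (-11425 to -9609 bp), across the 10 kb limit of the locus, and ranked 3 of all 15445 peaks, a rank that 4 peaks with this same score share. By score, only the peaks of 3214.14 and 3135.99 were higher. Whether the 4 equal scores of 3100 mark an upper limit of the unnamed scale was not tested, so the order of these top peaks is uncertain. The Pax5 peak over the start (-941 to 700 bp) had a score of 1372, rank 280, and those in intron 1 had 152 (1514 to 2470 bp) and 203 (16626 to 17655 bp). H3K27ac scores at the upstream peak (79.0, -13134 to -9224 bp) and at the start (77.2, -1324 to 5119 bp) were nearly equal. H3K4me3 at the start was a region of 5175 bp (-671 to 4503 bp). The upstream Pax5 peak overlapped 3 H3K4me3 regions, of which that inside the 10 kb limit was 75 bp wide (-10021 to -9947 bp). Syk has 3 annotated protein-coding starts spread over 13680 bp, and the internal one had its own H3K4me3 region of 675 bp (13854 to 14528 bp) and an H3K27ac peak of 18.8. The body held 19 H3K27ac peaks with scores from 3.97 to 27.2 and a median of 7.4, and the highest of them overlapped the Pax5 peak of score 203.

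Btk (ENSMUSG00000031264.7, chromosome X, 131076875 to 131118109, minus strand), the Tec family kinase that activates Plcg2, had the lowest maximum Pax5 score of the 8 genes. No Pax5 peak lay within 1000 bp of its starts. The nearest, 2165 bp upstream (-3040 to -2165 bp, score 311), lay within 1000 bp of the start of Rpl36a, a ribosomal protein gene, together with an H3K4me3 region of 1150 bp. Inside Btk, a Pax5 peak of score 226 lay in intron 4 (15953 to 16671 bp) under an H3K27ac peak of score 22.9 (15555 to 16892 bp), the highest in the gene's body. The promoter itself carried an H3K27ac peak of 35.1 (-657 to 1005 bp) and an H3K4me3 region of 2175 bp (-206 to 1968 bp). An H3K27ac peak of the same score, 35.1, lay past the other end of the gene at the start of Timm8a1, a mitochondrial import gene. Btk is X-linked and the mice were of both sexes, and its scores were not adjusted for copies of the X chromosome.

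Blnk (ENSMUSG00000061132.7, chromosome 19, 41003417 to 41069025, minus strand), the adaptor between Syk and its targets, had the widest promoter domains of the 8 genes. Its H3K27ac peak of 7698 bp ran from -5312 to 2385 bp with a score of 99.3, above 98.8% of the list. The H3K4me3 region of 5600 bp (-1760 to 3839 bp) ranked 18 of the 17979 regions by width and was the only H3K4me3 region of the locus. Pax5 peaks lay on both sides of the start, with scores of 590 (-2225 to -833 bp) and 679 (-220 to 1102 bp). In the body, Pax5 peaks of 393 in intron 2 (23418 to 24359 bp) and 634 in intron 4 (30850 to 31789 bp) had no H3K4me3. Each overlapped 2 H3K27ac peaks of the body. The higher of these scored 22.1 (23875 to 25031 bp) in intron 2 and 20.9 (29966 to 31246 bp) in intron 4, where the median of all 14 body peaks was 7.4.

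Plcg2 (ENSMUSG00000034330.9, chromosome 8, 120022191 to 120159040, plus strand) encodes the phospholipase that makes the calcium-releasing second messenger. Its promoter Pax5 peak of 1831 bp had a score of 846 (-416 to 1414 bp), above 93.7% of the list. The promoter H3K27ac peak, with a score of 49.7, began only after the start (334 to 1388 bp), whereas the H3K4me3 region of 1850 bp (-442 to 1407 bp) spanned it. The other 3 Pax5 peaks all lay in intron 2, with low scores of 176 (29039 to 30292 bp), 93.2 (30617 to 31711 bp) and 104 (38350 to 39251 bp). The first pair overlapped an H3K27ac peak of 3595 bp with a score of 28.3 (28025 to 31619 bp), and this was the highest of the 17 body peaks, whose median was 7.4.

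**Figure D3:**
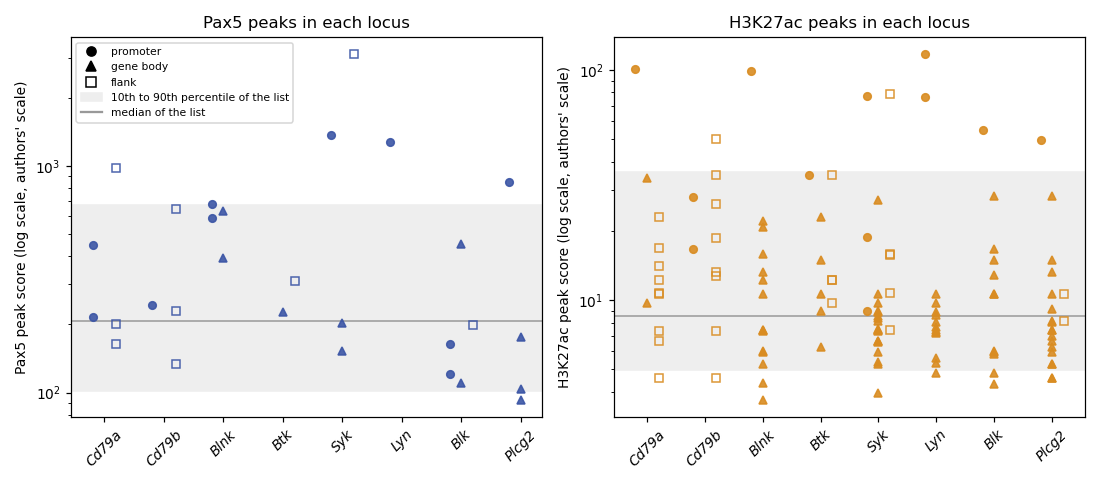
Score of each Pax5 peak (left) and H3K27ac peak (right) in the 8 loci on log axes, by promoter, gene body and flank, with the list's median and its 10th to 90th percentiles in grey. The upstream flank peak of Syk is highest for Pax5 (3100), and the promoter peaks of Lyn (117), Cd79a (101) and Blnk (99.3) are highest for H3K27ac.

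By the highest score within the locus, the order for Pax5 was Syk (3100), Lyn (1275), Cd79a (979), Plcg2 (846), Blnk (679), Cd79b (644), Blk (453) and Btk (311). The first 6 were among the highest 10.0% of all protein-coding genes. Ranked by the highest score at the promoter instead, 4 were in the highest 10%, without Cd79a, whose 979 lay at a start of Arhgef1, and without Cd79b. The Pax5 peaks of 3100 (Syk) and 644 (Cd79b) lay across the 10 kb limit and count only by overlapping it. The next scores in these loci were 1372 and 244. For H3K27ac the order was Lyn (117), Cd79a (101), Blnk (99.3), Syk (79.0), Blk (54.8), Cd79b (50.2), Plcg2 (49.7) and Btk (35.1), and the first 4 were among the highest 10.1%. The H3K27ac peaks of 79.0 (Syk) and 50.2 (Cd79b) also lay across the 10 kb limit, and the next scores there were 77.2 and 35.0. Without replicates, it cannot be said which neighbours in these orders differ beyond the spread between libraries. Btk was last in both, and Syk, Lyn and Cd79a were in the first 4 of both.

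In 5 of the 8 genes, the highest Pax5 score of the locus lay off the promoter, namely in Cd79a, Cd79b, Syk, Blk and Btk. For Cd79a and Btk, that peak lay within 1000 bp of a start of a neighbouring gene (Arhgef1 and Rpl36a). Of the 11614 protein-coding genes with a Pax5 peak in the locus, 43.0% had their highest score off the promoter. Restricted to genes with Pax5 peaks both at and off the promoter, the counts were 4 of 6 and 47.6% of 3664, so the share among the signalling genes is of the same order as the background. At the promoters alone, Pax5 scores were 1372 for Syk, 1275 for Lyn, 846 for Plcg2, 679 for Blnk, 450 for Cd79a, 244 for Cd79b and 164 for Blk. The median over the 8366 genes with a Pax5 peak at the promoter was 269, so Cd79b and Blk were below it.

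H3K4me3 was measured by the width of the widest region at each promoter. Blnk (5600 bp) and Syk (5175 bp) ranked 16 and 26 of the 11760 protein-coding genes with such a region, and Cd79b (4075 bp) and Cd79a (4000 bp) ranked 135 and 144. The regions of Blk (2425 bp), Lyn (2375 bp), Btk (2175 bp) and Plcg2 (1850 bp) were narrower and lay between the percentiles 71.8 and 89.3. All 8 were wider than the median of 1475 bp. Most of the added width lay downstream of the start, since the regions ended between 1407 and 4503 bp, where the median end over all genes was 920 bp. Upstream, 5 of the 8 began closer to the start than the median of -494 bp, the exceptions being Blnk (-1760 bp), Syk (-671 bp) and Lyn (-551 bp).

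**Figure D4:**
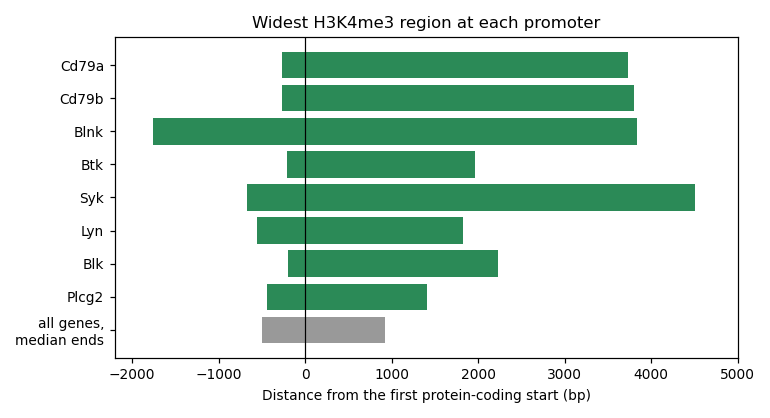
Extent of the widest H3K4me3 region at the promoter of each gene, in bp from the first protein-coding start with transcription to the right, and in grey the median ends over the 11760 genes with a region. All 8 regions run further downstream than the grey bar, and those of Cd79a, Cd79b, Blnk and Syk end between 3729 and 4503 bp.

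The positions of the 3 lists were compared within the loci by overlap of at least 1 bp. All 29 Pax5 peaks overlapped an H3K27ac peak, where 79.3% of the whole Pax5 list did. This held for the 16 Pax5 peaks away from any protein-coding start (67.8% of such peaks in the whole list) and for the 13 at a start (90.6%). Pax5 and H3K4me3 met less often, with 17 of 29 Pax5 peaks (58.6%) overlapping an H3K4me3 region, where 61.0% of the list did. Away from any start, 5 of 16 did, against 25.5% in the list. All 28 H3K4me3 regions overlapped an H3K27ac peak (79.7% of the list), and 14 of them overlapped a Pax5 peak, where 52.9% of the list did.

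Seen from H3K27ac, 31 of the 120 peaks (25.8%) overlapped a Pax5 peak, close to the 25.0% of the whole list. Off the promoters, the 22 H3K27ac peaks with Pax5 had a median score of 21.5 and a median width of 1140 bp, and the 86 without Pax5 had 7.48 and 370 bp. Away from the start of any protein-coding gene, the 17 peaks of the loci with Pax5 had medians of 22.1 and 1170 bp, and the 82 without had 7.42 and 370 bp. The whole list showed a difference of the same direction there, with 16.9 and 886 bp for 6366 peaks with Pax5 and 7.38 and 358 bp for 45540 without. A wider peak has more chance of an overlap, so score and width are not separate measures here.

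The motif matches were counted in the whole peaks and in their middle 300 bases, and each is a match of letters, not a site. The 7 letters of the Pax5 motif, GCGTGAC, were in the middle of 0 of the 29 Pax5 peaks and of 5.72% of the whole list. Over whole peaks, 2 of 29 held it (the upstream peak of Btk and the promoter peak of Lyn), against 11.5% of the list. The Ebf letters CCCNNGGG were in the middle of 9 of 29 (31.0%, list 18.2%), the E box CAGGTG in 8 (27.6%, list 24.4%), ACAGGAAG in 2 (6.9%, list 4.97%), the octamer ATTTGCAT in 2 (6.9%, list 2.0%) and CCGGAAGT in 1 (3.45%, list 4.15%). The upstream Syk peak of score 3100 held ACAGGAAG at 2 places outside the middle printed above and no match to the other 5. In whole peaks, ACAGGAAG was found in 8 of 29 (27.6%, list 12.6%), the octamer in 6 (20.7%, list 5.44%) and the E box in 17 (58.6%, list 58.2%). The Ebf letters were in 11 whole peaks (37.9%, list 43.6%), so the order seen in the middle was turned, and CCGGAAGT was in 1 (3.45%, list 7.75%).

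In the 300 bases before the start, the octamer was found at 2 of the 8 promoters, and 1.82% of all promoters hold it. At Blnk it was the reverse complement near the start (bases 278 to 285 of the printed stretch). The Ebf letters were at 1 of the 8, and at 14.9% of all promoters. The E box was at 3 promoters (Cd79a, Blk and Plcg2), where 20.2% of all promoters hold it. GCGTGAC, ACAGGAAG and CCGGAAGT were at 0 of the 8, and at 2.51%, 2.82% and 3.6% of all promoters.

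The other genes of the pathway were compared at their starts, where the activators and inhibitors had most of the marks and the T cell counterparts few. Of 17 activators and adaptors, 16 had an H3K27ac peak, 17 an H3K4me3 region and 13 a Pax5 peak at the promoter. Vav2, an exchange factor, was the gene without H3K27ac there, and Ptprc, Vav1 and Bank1 were among those without Pax5. Of 9 inhibitors, 9, 8 and 7 did, with no H3K4me3 at Lair1 and no Pax5 at Lair1 or at Fcgr2b, the inhibitory Fc receptor gene. Of 12 T cell receptor counterparts of these genes, 4, 3 and 3 did. Over the whole loci (promoter, body and flanks), the highest Pax5 scores among these lists were in those of Pik3ap1 (1903) and Bcl10 (1416). Pik3ap1 links the receptor to phosphoinositide 3-kinase and Bcl10 acts in NF-κB activation, and both scores were under the 3100 upstream of Syk. The highest H3K27ac score in the locus of the inhibitory adaptor gene Dok3 was 154, above the 117 of Lyn.

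The counterparts make a gene by gene view possible. Zap70, the T cell relative of Syk, had no entry of any list at its promoter. Lck, the T cell Src family kinase, had H3K27ac peaks but no H3K4me3 region and no Pax5 peak at its promoter, whereas Fyn, a Src family kinase used in many cell types, had all 3, with an H3K4me3 region of 2025 bp. Plcg1, the relative of Plcg2 that many cell types use, had an H3K4me3 region of 1750 bp and a Pax5 peak but no H3K27ac peak there, and Lcp2, the relative of Blnk, had H3K27ac and an H3K4me3 region of 750 bp without Pax5. Off the promoter, Pax5 peaks were in the body or flanks of 10 of these 12 genes, 15 of the 17 activators and 8 of the 9 inhibitors. The share over all protein-coding genes was 30.9%. All 3 lists were above it, so Pax5 within the locus but off the promoter did not separate them from each other. Neighbouring genes can share a peak, and Cd3g and Cd3d had the same Pax5 score, 417.

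**Figure D5:**
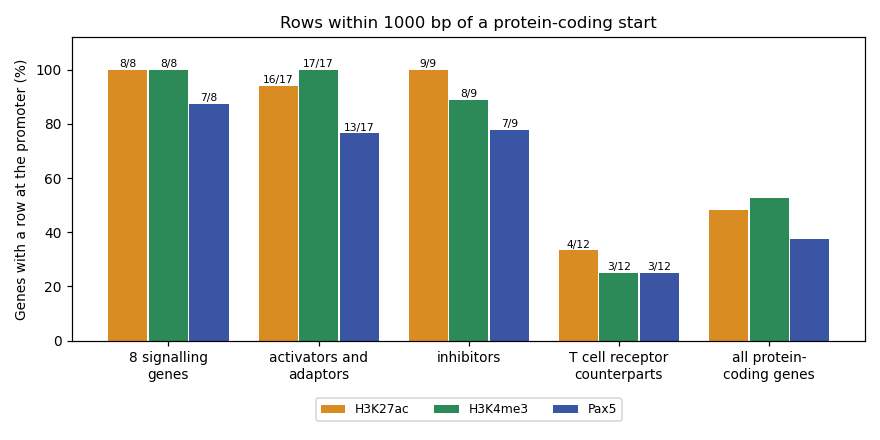
Percent of genes with an H3K27ac peak, H3K4me3 region or Pax5 peak within 1000 bp of a protein-coding start, for the 8 signalling genes, the 3 lists of other pathway genes and all 22342 protein-coding genes, with counts above the bars. The T cell receptor counterparts (4, 3 and 3 of 12) are the only list under the share of all genes (48.3%, 52.6% and 37.4%).

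Each gene's pattern of presence was written as 9 values, the 3 lists by promoter, body and flank. The patterns differed among all 8 genes, and Syk was the gene with entries of every list in every place, as were 136 protein-coding genes in all. The pattern of Blk was shared by 14 genes, that of Btk by 53 and that of Cd79b by 1016. Among the genes with the same pattern outside the pathway lists, the nearest by rank of the highest Pax5 score was Akna for Cd79a (971 against 979), Dvl2 for Cd79b (643 against 644), Sp4 for Lyn (1283 against 1275) and Dcaf12 for Blk (447 against 453). For Syk it was N4bp3 (2044 against 3100), for Btk it was Traf1 (315 against 311), for Blnk it was Bnip1 (685 against 679), and for Plcg2 it was 2010111I01Rik (851 against 846).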

How the data were processed

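The deposited lists of the H3K27ac, H3K4me3 and Pax5 ChIP libraries were used. The submitters' processing notes list mm9, Bowtie 0.12.9 and MACS 1.4.2. The study's methods name a different Bowtie version. They state that duplicate reads were removed before alignment and that reads with up to 3 best positions were kept. Whether these steps apply to the deposited lists is not given. The Pax5 list was called against input. The settings behind these lists are not given in the sources used here, nor is how the cells were sorted for them. The deposited H3K27ac and Pax5 lists give a score per peak, as the authors' MACS wrote it, and the H3K4me3 list holds 25 bp bins, whose selection is not given in the sources used here. Depth is unknown and no counting interval is given.

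Genes came from GENCODE M1, 7 matched by symbol and 1 (Syk) by a synonym in RefSeq's GRCm38 table, used for names only. An entry overlapping by at least 1 bp the 1000 bp on either side of a protein-coding start was at the promoter, otherwise in the body, otherwise in the 10 kb flank. Bins up to 100 bp apart were joined. A value is compared with all 22342 protein-coding genes and not tested. The named genes are the 8 members, fixed pathway and marker lists, neighbours with a start in a locus, and for each member the gene with the same 9 presence values nearest in rank. Members and lists were chosen with earlier results of these data known. Classification, joining and motif counting were tested on simulated data. Python 3.11.15, numpy 2.4.6, matplotlib 3.10.9 and samtools 1.23.1 were used. Other promoter windows, flanks, gaps, overlaps and the higher-scoring 50% of lists were tried. Some results on the pathway lists and promoter sequences are not reported here.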

Additional observations from a re-analysis of the deposited data

How the results depend on the processing

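No paired analysis was possible because 1 library underlies each list, and for the same reason no replicate could be left out. Of 106 values of 28 results under other settings, 89 stayed within 1.5 times the reported value and 17 did not. The numbers of the 8 genes with a promoter entry stayed, at 6 to 8, as did those in the highest 10%, although by the score at the promoter 4 and not 6 were so for Pax5. With a promoter window of 2500 bp, H3K27ac promoter peaks rose from 12 to 25, and 8 of 8 genes had a promoter Pax5 peak, Btk included. With flanks of 5 kb, the flank entries were 18 H3K27ac peaks, 6 H3K4me3 regions and 5 Pax5 peaks, and with 25 kb they were 72, 19 and 17, against 28, 11 and 9. With the higher-scoring 50% of the lists, 32 H3K27ac body peaks, 4 Pax5 body peaks and 5 Pax5 flank peaks remained, 8 activators had a promoter Pax5 peak, 17 of 17 Pax5 peaks overlapped H3K27ac and 11 of 17 overlapped H3K4me3, and 20 of 65 H3K27ac peaks overlapped Pax5. With an overlap of at least 50% of the peak, 11 of 120 H3K27ac peaks overlapped Pax5, and 25 of 29 Pax5 peaks overlapped H3K27ac. Placing entries by their midpoint left 6 H3K4me3 regions at a promoter, and joining bins across gaps up to 500 bp left 3 in a body. H3K4me3 has no score, so it has no higher-scoring list. Unknown depth limits every absence of a peak.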
